A study of Mus musculus with 18 samples.

Results

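The 9 genes described here are widely used markers of B cells and of plasma cells, the antibody-secreting cells that B cells give rise to: Ms4a1, Cd79a, Cd79b, Pax5, Fcmr, Blk, Jchain, Mzb1 and Tnfrsf17. They were picked by name from the 57010 gene IDs of the deposited count tables, and all 9 were found. They were read in 18 sequencing libraries made from total RNA of uterus or ovary; the mice were C57B6/J, 20 to 25 weeks old. The genotypes were WT, ARE+/- and ARE-/-, with 3 libraries for each genotype in each tissue, and the labels name no treatment. The study is about failed embryo implantation, defective formation of the corpus luteum and activated CD8 T cells in mice with interferon gamma-driven disease of the pituitary. The labels do not define ARE; as background, in mice of this kind it is an AU-rich element of the Ifng transcript whose deletion makes that transcript longer-lived, carried on 1 copy of Ifng in ARE+/- animals and on both in ARE-/- animals. The labels do not tie a uterus to an ovary of the same mouse and give no stage of the estrous cycle. By their titles, the first WT uterus library and the ARE-/- ovary library numbered 6 came from backup samples.

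B cells recognise antigen through a surface antibody that is held and coupled to signalling by CD79a and CD79b. After activation they can become plasma cells, which shut down most of that machinery and put their RNA into secreted antibody. The mucosa of the uterus is known as a site of plasma cells that secrete dimeric IgA, which is joined by the J chain and carried across the epithelium by the polymeric immunoglobulin receptor.

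The genes belong to several roles. Cd79a (ENSMUSG00000003379.8, chr7:24596806-24601622, plus strand) and Cd79b (ENSMUSG00000040592.12, chr11:106202167-106205588, minus strand) encode the signalling partners of the B cell receptor. Ms4a1 (ENSMUSG00000024673.10, chr19:11227039-11243605, minus strand) encodes CD20, a surface protein of mature B cells, and Fcmr (ENSMUSG00000042474.7, chr1:130793406-130808528, plus strand) encodes the receptor for the Fc part of IgM. Pax5 (ENSMUSG00000014030.16, chr4:44524757-44710487, minus strand) is the transcription factor that fixes B cell identity, and Blk (ENSMUSG00000014453.5, chr14:63610285-63654486, minus strand) is a Src-family kinase of B cells that is also known from plasmacytoid dendritic cells and from gamma delta T cells. Jchain (ENSMUSG00000067149.7, chr5:88668371-88675750, minus strand) encodes the protein that joins IgA dimers and IgM pentamers. Mzb1 (ENSMUSG00000024353.6) encodes a chaperone of antibody assembly in the endoplasmic reticulum, and Tnfrsf17 (ENSMUSG00000022496.6, chr16:11131676-11137938, plus strand) encodes BCMA, a survival receptor of plasma cells. Positions span the whole gene as the GENCODE M32 annotation in the count tables gives them. They are on another genome build than the GRCm38.p6 positions of the promoter windows below, and the positions do not line up between the builds. Of the 904 exon bases of Mzb1, 695 (76.9%) are also exon of SPATA24 on the same strand, and a read in the shared stretch was counted for both genes. Part of the Mzb1 count can therefore come from SPATA24 transcripts, whose counts were above those of Mzb1 in all 18 libraries.

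The start regions of 5 of the 9 genes were in the RefSeq promoter table for GRCm38.p6, which holds 250 bases before and 50 bases after a gene's start. Of these, 3 are shown because Cd79a and Fcmr varied together over the ovary libraries, and Jchain was the most abundant of the 9 genes in both tissues. Each runs from 5′ to 3′ on the gene's own strand, and capitals mark GAGGAA, the core of sites of the factor PU.1, here read on the opposite strand as TTCCTC.
Cd79a, chr7:24897247-24897546, plus strand: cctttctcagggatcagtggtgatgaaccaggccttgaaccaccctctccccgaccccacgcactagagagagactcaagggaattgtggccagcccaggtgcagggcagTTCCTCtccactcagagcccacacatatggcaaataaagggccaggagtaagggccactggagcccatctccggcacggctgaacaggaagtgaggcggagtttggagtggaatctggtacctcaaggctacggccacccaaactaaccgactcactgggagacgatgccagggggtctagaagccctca
Fcmr, chr1:130865527-130865826, plus strand: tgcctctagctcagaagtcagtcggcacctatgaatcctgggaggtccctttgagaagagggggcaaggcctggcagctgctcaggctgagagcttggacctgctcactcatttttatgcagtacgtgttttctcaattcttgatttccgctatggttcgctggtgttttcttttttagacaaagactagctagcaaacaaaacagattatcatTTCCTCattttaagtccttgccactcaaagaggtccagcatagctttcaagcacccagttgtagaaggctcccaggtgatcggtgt
Jchain, chr5:88527848-88528147, minus strand: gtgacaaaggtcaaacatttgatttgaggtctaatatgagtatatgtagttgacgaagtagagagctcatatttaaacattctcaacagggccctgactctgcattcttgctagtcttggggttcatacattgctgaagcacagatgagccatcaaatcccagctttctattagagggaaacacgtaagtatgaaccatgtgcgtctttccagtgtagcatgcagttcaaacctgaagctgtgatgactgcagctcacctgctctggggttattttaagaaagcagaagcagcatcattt
The match began 140 bases before the start of Cd79a and 36 bases before that of Fcmr, and these letters were not in the Jchain window. They were also absent from the Pax5 window, which is not shown. Over the ovary libraries Pax5 varied with Cd79a (Pearson r = 0.978) nearly as closely as Fcmr did (0.985). On either strand, GAGGAA was in 3 of 5 windows, the other being Tnfrsf17 at 120 bases before the start, and in 28.3% of all 32851 promoters of the table. The octamer ATGCAAAT, which Oct1 and Oct2 bind, was in 0 of 5 windows and 1.74% of all promoters. The gamma interferon activation site TTCNNNGAA was in 0 of 5 and 8.3%, and CCCNNGGG, the core of the EBF1 site, was in 0 of 5 and 13.7%. These are matches of letters, with no measure of binding.

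Total counts per library were 33185496 to 49720354 for uterus and 38132822 to 46647171 for ovary, with both mates of a read pair counted. Ifng had 0 to 6 counts in the 6 WT libraries and 10 to 130 in the 12 libraries of carriers, and the 8 listed genes induced by interferon gamma, Ifng among them, all rose in ARE-/- animals of both tissues. Markers of the ovary summed to 1990 to 10850 CPM in ovary libraries and to 70.3 to 284.5 CPM in uterus libraries, where CPM is the count scaled to a common library size after TMM normalization, set separately for each tissue. Uterus ARE-/- replicate 1 stood apart from the other uterus libraries: hemoglobin genes took 0.606% of its counts, its fat cell markers summed to 7395 CPM against 669 and 1123 CPM in the other ARE-/- libraries, and the ovary markers reached their uterus maximum in it. In whole tissue, a lower level of a marker from fewer cells cannot be told apart from less RNA per cell, and the same holds for a higher level.

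In WT animals the plasma cell gene Jchain was by far the most abundant of the 9, and it was lower in the ovary than in the uterus. Per kilobase of exon (RPKM), Jchain in the WT uterus had a level of 53.0 ± 5.15 (SD, n = 3), followed by Mzb1 at 1.62 ± 0.274 and Blk at 1.60 ± 0.270. Next came Cd79b at 0.908 ± 0.252 RPKM and Cd79a at 0.724 ± 0.388 RPKM. The lowest levels were those of Fcmr at 0.152 ± 0.0994, Tnfrsf17 at 0.146 ± 0.134, Ms4a1 at 0.0894 ± 0.0479 and Pax5 at 0.00595 ± 0.0103 RPKM. In this order the libraries of Mzb1 and Blk overlapped, as did those of Cd79b and Cd79a and those of Fcmr, Tnfrsf17 and Ms4a1. Jchain stood clear of Mzb1, Blk of Cd79b, Cd79a of Fcmr and Ms4a1 of Pax5, while Tnfrsf17, with 1 WT library at 0, overlapped Pax5. The WT ovary had Jchain at 12.1 ± 3.51 RPKM, Mzb1 at 1.37 ± 0.170, Cd79b at 0.757 ± 0.115, Cd79a at 0.755 ± 0.186 and Blk at 0.507 ± 0.310 RPKM. Ms4a1 was at 0.271 ± 0.198, Tnfrsf17 at 0.166 ± 0.191, Fcmr at 0.116 ± 0.0804 and Pax5 at 0.0507 ± 0.0292 RPKM. In the ovary Jchain and Mzb1 each stood clear of the next gene, and every later pair of neighbours overlapped. The level of Mzb1 in both tissues includes any reads of SPATA24 in the shared exons.

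The test between WT tissues used the raw counts of both tables in 1 fit over 18 libraries. Jchain fell by 2.27 ± 0.67 on the log2 scale from uterus to ovary (SE; edgeR adjusted p = 0.0225), the only call among the 9 genes, where 25.2% of all 26682 genes tested were called and 11.9% were called lower. Blk, the kinase, had a log2 difference of -1.80 ± 0.74 (adjusted p = 0.0886) with all 3 ovary libraries below all 3 uterus libraries. Pax5 differed by 2.87 ± 1.26 (adjusted p = 0.11) and Ms4a1 by 1.44 ± 1.08 (adjusted p = 0.372), and for both all ovary libraries lay above all uterus libraries. Of the 9 genes, 2 stood above without overlap, against 31% of all genes, and 2 below, against 16.5%. The other 5 genes differed by -0.54 to 0.07 on the log2 scale and their libraries overlapped. Mzb1 was among them, at -0.39 ± 0.54 (adjusted p = 0.663). SPATA24, which shares exons with Mzb1, was higher in the WT ovary by 1.21 ± 0.30 (edgeR adjusted p = 0.00706), and its part in the Mzb1 difference was not tested. The call of Jchain was lost without ovary WT replicate 1 (-2.11, adjusted p = 0.0923), without ovary WT replicate 3 (-2.20, adjusted p = 0.0775) and with no low-count filter (-2.26, adjusted p = 0.0608). Without uterus WT replicate 3 the test also called Pax5, then against uterus counts of 0 (6.98, adjusted p = 0.0329), and without ovary ARE-/- replicate 6 it also called Blk (-1.79, adjusted p = 0.0378).

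In ARE-/- against WT animals, 1 of the 9 genes passed the test: Cd79b rose 9.79-fold in the ovary. All other fitted differences were above 0 in both tissues and were not called, that of Blk in the uterus being close to 0. In the uterus 0 of 9 genes were called by edgeR with no block for the replicate number, where 3.75% of 24277 genes were called. An unadjusted p under 0.05 was found for 5 of the 9, and for 4819 of all genes tested, and DESeq2 called 2 of the 9, Cd79a and Cd79b, among 2276 genes. The 3 ARE-/- uterus libraries lay above all WT libraries for 6 of the 9 genes, against 12.5% of all genes. In the ovary 8 of the 9 genes passed the filter on low counts, all but Tnfrsf17, and 1 of 8 was called, where 10.5% of 24457 genes were called and 6.31% were called higher. There 5 of the 8 had an unadjusted p under 0.05, as did 6509 of all genes tested, and DESeq2 called 5 of them among 3904 genes. There, 2 of 8 genes had no overlap between ARE-/- and WT libraries, against 16.1% of all genes. The median log2 fold change of the genes was 0.98 in the uterus, beside 0.04 over all genes tested, and 2.42 in the ovary, beside 0.02. The genes were chosen with results of these libraries known, so these counts and medians describe them and test nothing.

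**Figure D1:**
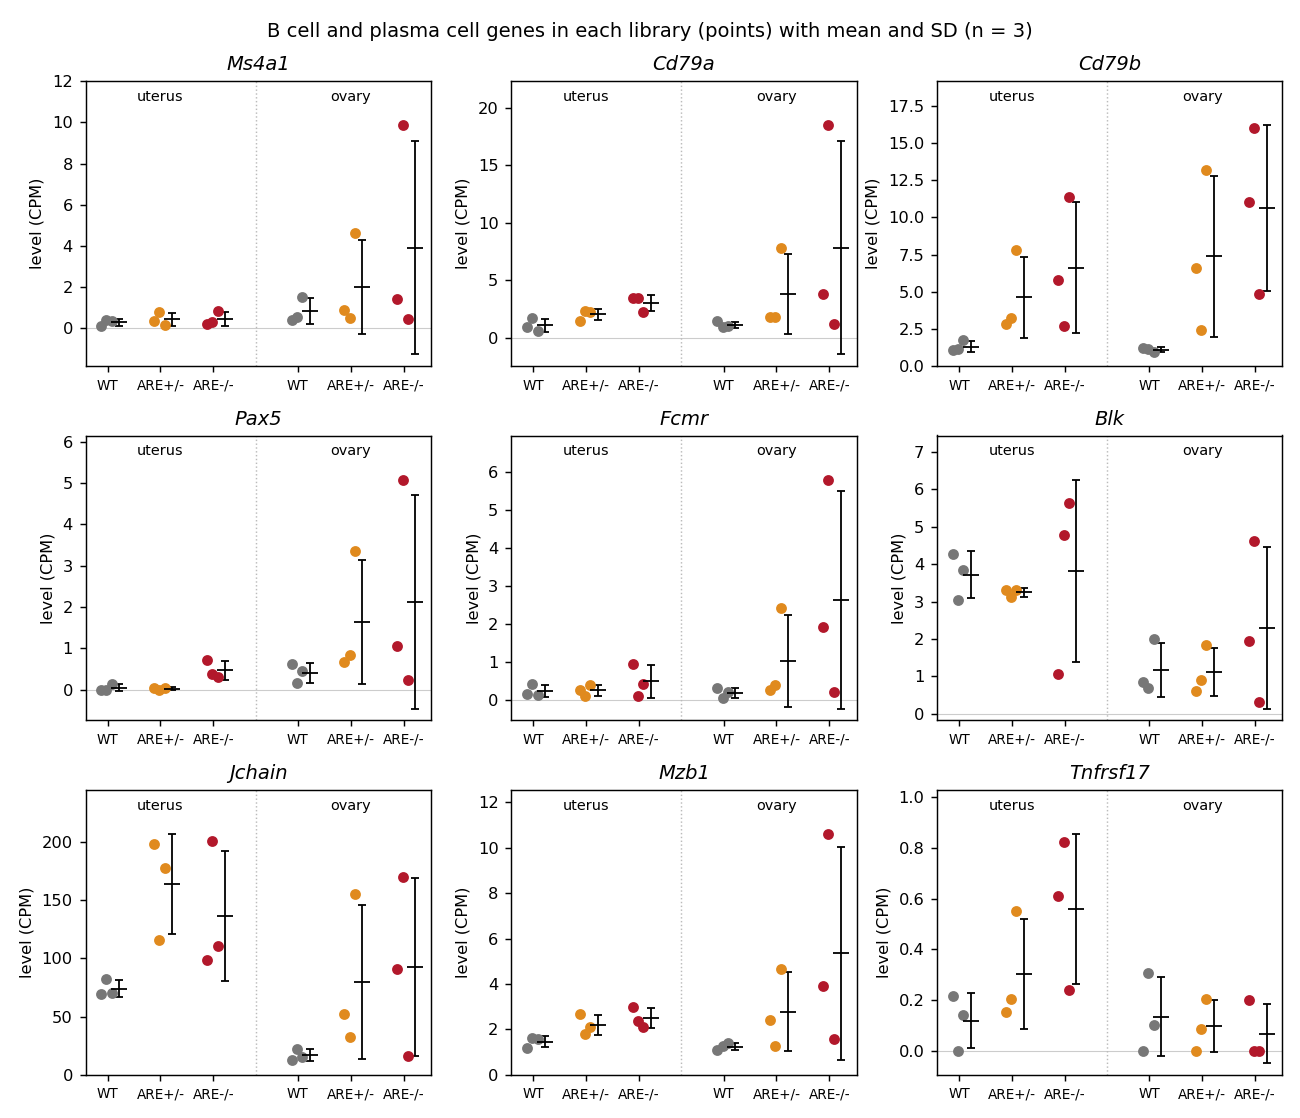
Level of each of the 9 genes in CPM (vertical axes, linear, scaled separately per gene) in each library, grouped by genotype, with uterus on the left and ovary on the right of each panel; points are libraries, bars the mean and SD of 3. Cd79b in the ovary is the gene whose carriers all lie above WT in that tissue, from 2.43 to 16.01 CPM against 0.903 to 1.23 CPM, and ovary ARE-/- spans 1.22 to 18.5 CPM for Cd79a.

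Cd79b, the beta signalling chain of the B cell receptor, had ovary levels of 1.23, 1.12 and 0.903 CPM in WT replicates 1, 2 and 3, of 6.59, 2.43 and 13.2 CPM in ARE+/- replicates 1, 2 and 4, and of 11.04, 16.01 and 4.86 CPM in ARE-/- replicates 2, 3 and 6. All 6 carrier libraries were higher than all 3 WT libraries, and the ARE+/- and ARE-/- libraries overlapped. The log2 fold change of ARE-/- against WT was 3.29 ± 0.65 (edgeR adjusted p = 0.0176) and that of ARE+/- against WT was 2.77 ± 0.64 (adjusted p = 0.0779). The size of the ARE-/- value held but its call was lost when a WT library was left out: without WT replicate 1, 2 or 3 it was 3.37, 3.30 or 3.16 with adjusted p = 0.0801, 0.0659 or 0.0749. With no low-count filter it was 3.29 with adjusted p = 0.0516. Without the backup library, ARE-/- replicate 6, Cd79b stood at 3.62 (adjusted p = 0.0109), and without replicate 3 at 2.86 (adjusted p = 0.0459). In the uterus the levels of Cd79b were 1.07, 1.11 and 1.72 CPM in WT replicates 1 to 3, 2.84, 3.22 and 7.78 CPM in ARE+/- and 5.78, 2.66 and 11.4 CPM in ARE-/-. Here too every carrier library was above every WT library, with a log2 fold change of 2.34 ± 0.59 for ARE-/- (adjusted p = 0.0604) and of 1.82 ± 0.58 for ARE+/- (adjusted p = 0.188). Without the library that stood apart, ARE-/- replicate 1, the uterus value was 2.42 (adjusted p = 0.0827); without ARE-/- replicate 2 it was 2.72 and passed (adjusted p = 0.0279), and without ARE-/- replicate 3 it was 1.66 (adjusted p = 0.166). The ARE+/- value of Cd79b in the uterus was 1.22 without ARE+/- replicate 3 (adjusted p = 0.586). With the replicate number as a block, the ARE-/- value of Cd79b in the uterus was 2.17 and passed (edgeR adjusted p = 0.0232).

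Cd79a, the alpha chain that pairs with it, had uterus levels of 0.885, 1.69 and 0.596 CPM in WT, 1.48, 2.28 and 2.26 CPM in ARE+/- and 3.47, 3.41 and 2.22 CPM in ARE-/- replicates 1 to 3. The ARE-/- libraries were all above WT, and ARE+/- replicate 1 was below WT replicate 2. The log2 fold change was 1.52 ± 0.45 for ARE-/- (adjusted p = 0.0998) and 0.92 ± 0.44 for ARE+/- (adjusted p = 0.397). Without WT replicate 2, the highest WT library, the ARE-/- value was 2.03 and passed (adjusted p = 0.038). In the ovary Cd79a had levels of 1.41, 0.891 and 1.00 CPM in WT, 1.80, 1.77 and 7.80 CPM in ARE+/- and 3.81, 18.5 and 1.22 CPM in ARE-/-. ARE-/- replicate 3 was 15.2-fold above replicate 6 of its own group, and replicate 6 lay inside the WT range. The ovary log2 fold change was 2.83 ± 1.05 for ARE-/- (adjusted p = 0.133) and 1.78 ± 1.02 for ARE+/- (adjusted p = 0.465), and without ARE-/- replicate 3 the former was 1.17 (adjusted p = 0.391). The ratio of Cd79b to Cd79a per kilobase was 0.889 to 1.28 in the WT ovary and 0.882, 2.95 and 4.07 in ARE-/- replicates 3, 2 and 6, so the ovary library with the most Cd79a had a ratio just under the WT range.

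Ms4a1 and Fcmr, the other surface proteins of mature B cells, were near the limit of counting in the uterus. Ms4a1 had 0.107, 0.384 and 0.334 CPM in WT, 0.341, 0.767 and 0.166 CPM in ARE+/- and 0.222, 0.291 and 0.838 CPM in ARE-/- uterus libraries, which were 4 to 30 counts each. Fcmr had 0.161, 0.427 and 0.143 CPM in WT, 0.265, 0.102 and 0.386 CPM in ARE+/- and 0.944, 0.0968 and 0.419 CPM in ARE-/- uterus libraries. For both genes the 3 uterus genotypes overlapped, with ARE-/- log2 fold changes of 0.69 ± 0.83 (95% interval -0.93 to 2.31, adjusted p = 0.697) and 0.98 ± 0.91 (-0.80 to 2.76, adjusted p = 0.6). Without uterus ARE-/- replicate 1 the value of Fcmr was 0.05, and without uterus WT replicate 2 it was 1.65. In the ovary Ms4a1 had 0.409, 0.560 and 1.53 CPM in WT, 0.889, 0.470 and 4.62 CPM in ARE+/- and 1.41, 9.86 and 0.446 CPM in ARE-/-. The ovary levels of Fcmr were 0.307, 0.0509 and 0.201 CPM in WT, 0.261, 0.384 and 2.41 CPM in ARE+/- and 1.91, 5.79 and 0.198 CPM in ARE-/-. In both genes ARE-/- replicate 3 and ARE+/- replicate 4 were the highest libraries, and ARE-/- replicate 6 was within the WT range. The fitted ovary differences were 2.22 ± 1.28 for Ms4a1 (adjusted p = 0.321) and 3.80 ± 1.34 for Fcmr (adjusted p = 0.114). Leaving out ARE-/- replicate 3 brought Ms4a1 to 0.13 and Fcmr to 2.47, and leaving out ARE-/- replicate 6 brought Fcmr to 4.33, which passed (adjusted p = 0.0402).

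Pax5, the B lineage factor, had 0, 0 and 6 counts in the WT uterus, 2, 0 and 2 in ARE+/- and 26, 16 and 10 in ARE-/- libraries. These are levels of 0, 0 and 0.143 CPM, 0.0379, 0 and 0.0552 CPM, and 0.722, 0.387 and 0.299 CPM. In the libraries at 0, a level of 3 counts was 0.0804 CPM in WT replicate 1, 0.0640 in WT replicate 2 and 0.0767 in ARE+/- replicate 2. With both mates of a pair counted, a limit of 3 read pairs would be higher. The ARE-/- libraries were above all other uterus libraries. The log2 fold change was 3.22 ± 1.30 against WT (adjusted p = 0.208) and 3.79 ± 1.36 against ARE+/- (adjusted p = 0.882), and neither was called. Without WT replicate 3, the one WT library with counts, the fitted value against WT was 7.25 (adjusted p = 0.172), which then sets ARE-/- against counts of 0 and is no bound on the fold. In the ovary Pax5 had 0.614, 0.153 and 0.452 CPM in WT, 0.680, 0.854 and 3.36 CPM in ARE+/- and 1.05, 5.08 and 0.248 CPM in ARE-/-. The 3 ARE+/- libraries were above all WT libraries, and ARE-/- replicate 6 was not. The ovary log2 fold change was 2.38 ± 1.10 for ARE-/- (adjusted p = 0.211) and 2.00 ± 1.10 for ARE+/- (adjusted p = 0.433). Without ARE-/- replicate 3 the former was 0.66.

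Blk, the Src-family kinase, had uterus levels of 4.26, 3.03 and 3.86 CPM in WT, 3.31, 3.12 and 3.31 CPM in ARE+/- and 1.06, 4.79 and 5.63 CPM in ARE-/-. ARE-/- replicate 1, the library that stood apart, was the lowest of the 9 and the other ARE-/- libraries were the highest. The uterus log2 fold change was 0.04 ± 0.51 (95% interval -0.95 to 1.03, adjusted p = 0.976), and 0.48 without that library. In the ovary Blk had 0.844, 0.688 and 2.01 CPM in WT, 0.601, 0.896 and 1.85 CPM in ARE+/- and 1.96, 4.63 and 0.322 CPM in ARE-/-. The genotypes overlapped, and the ARE-/- log2 fold change was 0.96 ± 0.83 (adjusted p = 0.512) and -0.07 without ARE-/- replicate 3. Of listed markers of other cells known to carry Blk, 2 of 8 genes of gamma delta T and NK cells rose in the uterus and 5 of 8 in the ovary of ARE-/- animals, and of 7 plasmacytoid dendritic cell genes 0 were called in the uterus and 1 rose and 1 fell in the ovary; their part in the level of Blk was not tested.

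Jchain, the antibody-joining protein, had uterus levels of 69.5, 82.2 and 70.0 CPM in WT, 198, 116 and 178 CPM in ARE+/- and 99.0, 201 and 110.2 CPM in ARE-/-. All carrier libraries were above all WT libraries, and the carriers overlapped each other. The log2 fold change was 1.15 ± 0.29 for ARE+/- (adjusted p = 0.105) and 0.89 ± 0.29 for ARE-/- (adjusted p = 0.134), and between ARE-/- and ARE+/- it was -0.26 ± 0.29 (95% interval -0.83 to 0.31, adjusted p = 0.986). In the ovary Jchain had 12.99, 22.4 and 15.3 CPM in WT, 51.8, 32.6 and 155 CPM in ARE+/- and 91.1, 169.7 and 16.5 CPM in ARE-/-. The ARE+/- libraries were all above WT, while ARE-/- replicate 6 was between WT replicates 2 and 3. The ovary log2 fold change was 2.45 ± 0.92 for ARE-/- (adjusted p = 0.147) and 2.24 ± 0.92 for ARE+/- (adjusted p = 0.304). Without ARE-/- replicate 3 the ARE-/- value was 1.66 (adjusted p = 0.343) and without replicate 6 it was 2.93 (adjusted p = 0.0513).

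Mzb1, the antibody chaperone, had uterus levels of 1.18, 1.62 and 1.60 CPM in WT, 2.67, 1.79 and 2.10 CPM in ARE+/- and 2.97, 2.37 and 2.13 CPM in ARE-/-. The carriers were above WT without overlap, by log2 fold changes of 0.76 ± 0.33 for ARE-/- (adjusted p = 0.241) and 0.58 ± 0.33 for ARE+/- (adjusted p = 0.487). SPATA24, which shares most of its exon sequence, had a similar uterus value of 0.84 ± 0.35 (adjusted p = 0.217) for ARE-/-, and its part in the Mzb1 count was not tested. In the ovary Mzb1 had 1.07, 1.25 and 1.38 CPM in WT, 2.41, 1.26 and 4.67 CPM in ARE+/- and 3.91, 10.6 and 1.56 CPM in ARE-/-. The 3 ARE-/- libraries were all above WT, with a log2 fold change of 2.12 ± 0.69 (adjusted p = 0.0873), against 0.29 ± 0.24 (adjusted p = 0.49) for SPATA24. Without ARE-/- replicate 6 the ovary value of Mzb1 was 2.53 and passed (adjusted p = 0.0219), and without ARE-/- replicate 3 it was 1.131 (adjusted p = 0.255).

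Tnfrsf17, the survival receptor of plasma cells, had 8, 0 and 6 counts in WT, 8, 8 and 20 in ARE+/- and 22, 34 and 8 in ARE-/- uterus libraries. The ARE-/- levels of 0.611, 0.823 and 0.240 CPM were above the WT levels of 0.215, 0 and 0.143 CPM, narrowly so for replicate 3, and the log2 fold change was 2.23 ± 1.07 (adjusted p = 0.286), with 2.94 without WT replicate 1 and 1.63 without WT replicate 2. Its ovary counts were 0, 12 and 4 in WT, 0, 4 and 8 in ARE+/- and 8, 0 and 0 in ARE-/-, too few to be tested. In the ovary libraries at 0, a level of 3 counts was at most 0.0784 CPM. ARE-/- replicate 3, the highest ovary library for each of the other 8 genes, had none, where 3 counts were 0.0762 CPM. A limit of 3 read pairs would be higher.

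**Figure D2:**
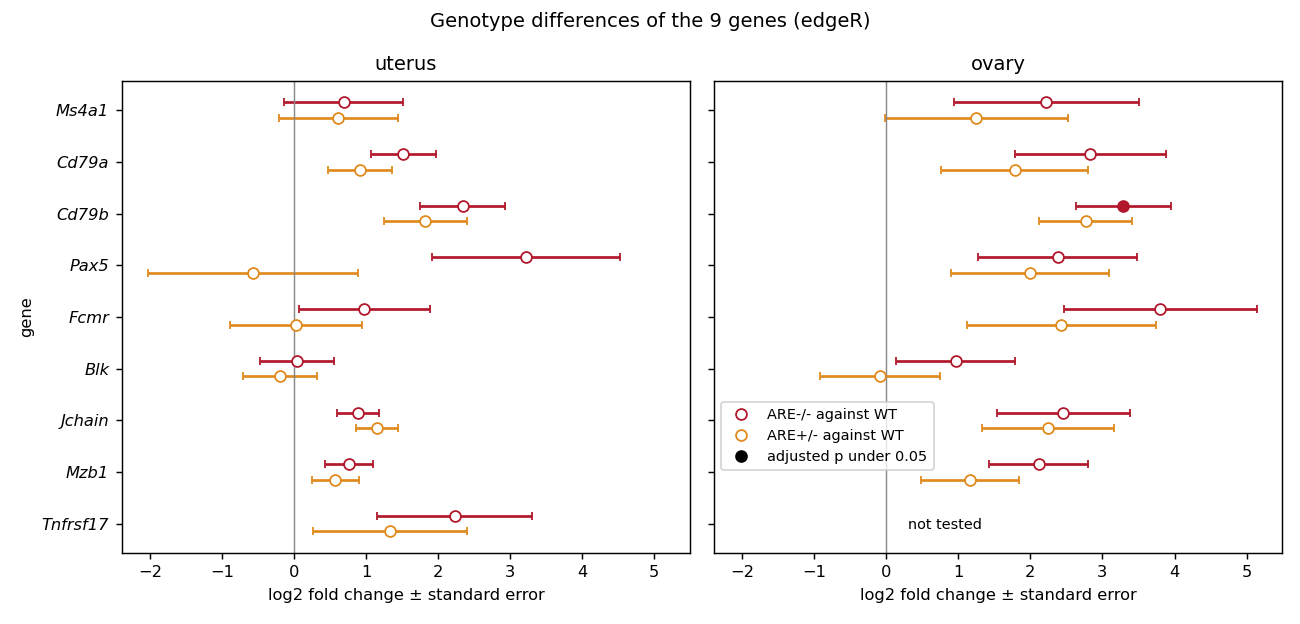
Log2 fold change with its standard error (horizontal axis) of each gene for ARE-/- against WT (red) and ARE+/- against WT (orange) in uterus and ovary; a filled point has an adjusted p under 0.05. Only Cd79b in the ovary, at 3.29 ± 0.65, is filled, and Tnfrsf17 was not tested in the ovary.

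In ARE+/- against WT animals edgeR called 0 of 9 genes in the uterus, where 1.14% of all genes were called, and 0 of 8 in the ovary, where 1.71% were called. In each tissue 2 of these genes had an unadjusted p under 0.05, as did 3418 of all genes in the uterus and 3845 in the ovary. DESeq2 called 2 in the uterus (Cd79b and Jchain), among 1305 genes, and 1 in the ovary (Cd79b), among 1338. All ARE+/- libraries lay above all WT libraries for 3 of 9 genes in the uterus (Cd79b, Jchain and Mzb1), against 15.7% of all genes, and for 4 of 8 in the ovary (Cd79a, Cd79b, Pax5 and Jchain), against 14.7%. The median log2 fold change was 0.61 in the uterus and 1.89 in the ovary, beside 0.01 and 0.02 over all genes. Both carrier groups were compared with the same WT libraries. Without uterus ARE-/- replicate 2, which entered the estimate of spread, Jchain passed for ARE+/- (adjusted p = 0.0491), and without ovary ARE+/- replicate 2 Cd79b passed (3.17, adjusted p = 0.0187). Without ovary ARE+/- replicate 4, the highest of its group for all 9 genes, the fitted ovary values were between -0.67 for Blk and 2.03 for Cd79b. The test of any difference among the 3 genotypes called 0 of 9 genes in the uterus, where 2.25% of all genes were called, and 0 of 8 in the ovary, where 5.25% were called. An unadjusted p under 0.05 was found for 4 genes in uterus and 2 in ovary, and for 3802 and 5129 of all genes tested. DESeq2 called 2 and 3 of the genes, among 2009 and 2965 genes. Cd79b in the ovary was at the limit (edgeR adjusted p = 0.0503).

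No gene was called between ARE-/- and ARE+/- animals. In the uterus edgeR and DESeq2 called 0 of 9, edgeR called 0% of all genes, and 1 gene, Pax5, had an unadjusted p under 0.05 and the only ARE-/- libraries without overlap, against 4.77% of all genes. Of all genes tested there, 1182 had an unadjusted p under 0.05. In the ovary both tools called 0 of 8, where edgeR called 0.0491% of all genes, and 0 genes had an unadjusted p under 0.05 or ARE-/- libraries all above ARE+/-, against 2051 of all genes tested for the former and 6.32% of all genes for the latter. The ovary values ran from 0.21 for Jchain to 1.37 for Fcmr, and their intervals were wide: that of Cd79b was -0.62 to 1.67 and that of Cd79a -0.85 to 2.95. The interaction test of whether the ARE-/- effect differed between tissues made no call: 0 of 9 genes were called by edgeR and by DESeq2 and 0 had an unadjusted p under 0.05, where edgeR called 0.169% of all genes and 3752 had an unadjusted p under 0.05. The difference, ovary minus uterus, was 2.83 ± 1.56 for Fcmr (adjusted p = 0.438), and for Cd79b it was 0.95 ± 0.87 (95% interval -0.75 to 2.64). For the ARE+/- effect 0 of 9 genes were called by either tool, with 0 at an unadjusted p under 0.05, where edgeR called 0.00375% of all genes and 2380 had an unadjusted p under 0.05.

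In the ovary 8 of the 9 genes, all but Tnfrsf17, tended to be high or low together over the libraries. Blk and Cd79b did so least (Pearson r = 0.504). ARE-/- replicate 3 was the highest ovary library for 8 of 9 genes, and ARE+/- replicate 4 was among the top 2 for 8. Relative to the WT mean of the tissue, with 0.1 CPM added to each level, the median over the 8 genes without Tnfrsf17 was a log2 difference of 3.39 in ARE-/- replicate 3, 1.65 in replicate 2 and 0.01 in replicate 6. In the ARE+/- ovary it was 0.65, 0.70 and 2.75 in replicates 1, 2 and 4. In the backup library, ARE-/- replicate 6, Cd79b was the single gene more than 1 above the WT mean on this scale, at 2.07. In the uterus the medians were 1.29, 0.82 and 0.80 in ARE-/- and 0.34, 0.46 and 0.50 in ARE+/- replicates 1 to 3. Pearson correlations of log2 levels over the 9 ovary libraries ran from 0.504 to 0.985 over the 28 pairs of these 8 genes (median 0.889), and over the 9 uterus libraries from -0.717 to 0.71 (median 0.328). Tnfrsf17, at 0 in 4 ovary libraries, had correlations of -0.095 to 0.157 with the others there. The libraries of a tissue share genotype groups, so these describe the set and are not a test.

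**Figure D3:**
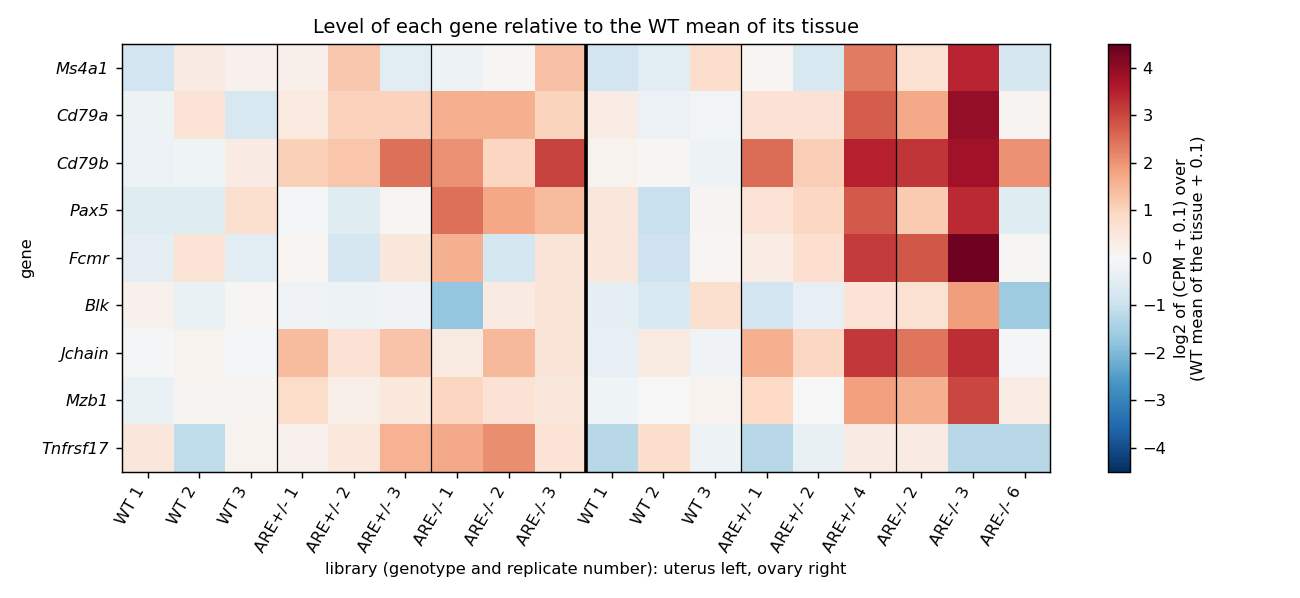
Log2 of the level relative to the WT mean of the tissue, with 0.1 CPM added to each (colour scale), for each gene (rows) in each library (columns; uterus left of the thick line, ovary right). ARE-/- replicate 3 and ARE+/- replicate 4 of the ovary are raised across most rows, with medians of 3.39 and 2.75, while ARE-/- replicate 6 has a median of 0.01 and a high value for Cd79b.

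The same ovary libraries stood apart for antibody genes. The 12 immunoglobulin constant region genes summed to 87.0 to 175 CPM in the WT ovary, to 483, 268 and 1490 CPM in ARE+/- replicates 1, 2 and 4, and to 1040, 2826 and 203 CPM in ARE-/- replicates 2, 3 and 6. The order of the libraries within each carrier group was that of Jchain. T cell markers, a list of 13 genes with none at 0 in any library, summed to 96.2, 163.7 and 73.7 CPM in ARE-/- replicates 2, 3 and 6 against 24.0 to 26.8 CPM in WT, and 12 of 13 rose. The 10 macrophage markers, also with none at 0, summed to 2063, 1741 and 978 CPM against 446 to 585 CPM, and 8 of 10 rose. ARE-/- replicate 6 was thus above WT for T cell and macrophage markers while 7 of the 8 B cell and plasma cell genes tested were less than 1 above the WT mean on the log2 scale. Fat cell markers, 7 genes with none at 0, summed to 860, 1382 and 154 CPM in these ARE-/- libraries, to 932, 257 and 520 CPM in ARE+/- and to 184 to 238 CPM in WT, with 0 of 7 called by edgeR and 2 at an unadjusted p under 0.05. Markers of ovarian cells, 11 genes with none at 0, summed to 3743, 1990 and 7631 CPM in ARE-/- against 7619 to 10850 CPM in WT, with 0 of 11 called and 0 at an unadjusted p under 0.05. Markers of uterine cells, 10 genes with none at 0, summed to 2781, 2506 and 1401 CPM in ARE-/- replicates 2, 3 and 6, to 1208, 1386 and 2233 CPM in ARE+/- replicates 1, 2 and 4, and to 1403 to 1627 CPM in the WT ovary, with 1 of 10 called and 5 at an unadjusted p under 0.05 in ARE-/-. Genes of lymph node stroma and vessels summed to 744, 1363 and 841 CPM in ARE-/- replicates 2, 3 and 6. They summed to 699, 1061 and 854 CPM in ARE+/- replicates 1, 2 and 4 and to 898 to 992 CPM in WT. The library with the highest B cell gene levels had the lowest ovarian marker sum and the highest lymph node sum. The 3 ovary libraries with the highest uterine marker sums were the 3 highest for Cd79a, Jchain and the summed antibody genes. What part these tissue shares had in the levels of the 9 genes was not tested.

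In the uterus the immunoglobulin constant region genes summed to 556 to 686 CPM in WT, 1090 to 1715 CPM in ARE+/- and 1222 to 1774 CPM in ARE-/- libraries, so that carriers were all above WT. T cell markers summed to 35.1 to 47.3 CPM in WT, 68.2 to 88.6 CPM in ARE+/- and 172 to 202 CPM in ARE-/-, and 12 of 13 rose in ARE-/-. The 10 macrophage markers summed to 546 to 748, 1227 to 1705 and 1574 to 2980 CPM in the same groups, and 9 of 10 rose in ARE-/-. All 7 fat cell markers and all 5 red blood cell markers rose in ARE-/-, to sums of 669 to 7395 CPM and 838 to 7265 CPM against 83.0 to 91.9 and 96.0 to 220 CPM in WT, with none of either list at 0. Both reached their maximum in ARE-/- replicate 1. Markers of uterine cells, 10 genes with none at 0, summed to 4817 to 5371 CPM in WT and 3028 to 3290 CPM in ARE+/- uterus libraries. In ARE-/- replicates 1, 2 and 3 they summed to 10490, 3020 and 2804 CPM. Of these 10 genes, 0 were called in either carrier group. Of 8 tested genes of lymph node stroma and vessels, 1 rose in the ARE-/- uterus (Enpp2, 1.56 ± 0.22), and of 7 in the ovary 2 rose. The part of these other cells in the levels of the 9 genes was not tested.

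Among the antibody genes of the uterus, the heavy chains of IgM and IgG2c rose in both carrier groups, while that of IgA was not called. Ighm, the IgM heavy chain, had 12.95, 22.7 and 17.7 CPM in WT, 55.6, 69.1 and 79.7 CPM in ARE+/- and 119.7, 120.8 and 122 CPM in ARE-/- uterus libraries. The 3 genotypes did not overlap, and Ighm rose by a log2 fold change of 2.77 ± 0.23 in ARE-/- (adjusted p = 0.000592) and 1.94 ± 0.22 in ARE+/- (adjusted p = 0.00702). Ighg2c, the heavy chain of an IgG subclass that interferon gamma is known to favour in mice, had 2.01, 3.44 and 2.07 CPM in WT, 19.1, 36.6 and 30.8 CPM in ARE+/- and 95.0, 80.9 and 35.3 CPM in ARE-/- uterus libraries. It rose by 4.81 ± 0.45 in ARE-/- (adjusted p = 0.000783) and by 3.52 ± 0.42 in ARE+/- (adjusted p = 0.00738), with ARE-/- replicate 3 just under the highest ARE+/- library. Igha, the IgA heavy chain, had a log2 fold change of 0.92 ± 0.27 in the ARE-/- uterus (adjusted p = 0.0951), close to the 0.89 of Jchain. Of 11 immunoglobulin genes tested in the uterus 5 rose in ARE-/-, the others being Ighg2b (2.82 ± 0.43), Igkc (1.30 ± 0.24) and Iglc3 (2.01 ± 0.39), and 3 rose in ARE+/-, with Igkc at 1.29 ± 0.24 (adjusted p = 0.0357). The ARE-/- calls of Ighm and Ighg2c held in all 15 alternatives, while without WT replicate 1 or WT replicate 3 the calls of Ighg2b, Igkc and Iglc3 and all ARE+/- calls of this list were lost. In all, Iglc3 in ARE-/- was lost in 6 of 15 alternatives and Igkc in ARE+/- in 7, among them those without any 1 of the ARE+/- libraries.

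Set against Jchain per kilobase, Igha kept a narrow range in the uterus and the other classes did not. The ratio of Igha to Jchain was 2.60 to 2.75 in WT, 2.49 to 2.71 in ARE+/- and 2.42 to 3.21 in ARE-/- uterus libraries. The ratio of Ighm to Jchain was 0.153 to 0.226, 0.230 to 0.488 and 0.493 to 0.993 in the same groups, and that of Ighg2c to Jchain was 0.0332 to 0.0480, 0.111 to 0.362 and 0.368 to 1.10. For both ratios the 3 uterus genotypes did not overlap. In the ovary Igha to Jchain was 1.28 to 3.13 over all 9 libraries, Ighm to Jchain was 0.352 to 0.606 in WT and 0.971 to 2.98 in carriers, and Ighg2c to Jchain was 0.139 to 0.307 in WT and 0.363 to 4.52 in carriers. The carriers' ovary ratios were thus above WT for Ighm and Ighg2c, ARE-/- replicate 6 being the lowest of them for Ighg2c. Jchain to Cd79a was 51.0 to 123 in the WT uterus and 9.66 to 26.2 in the WT ovary.

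**Figure D4:**
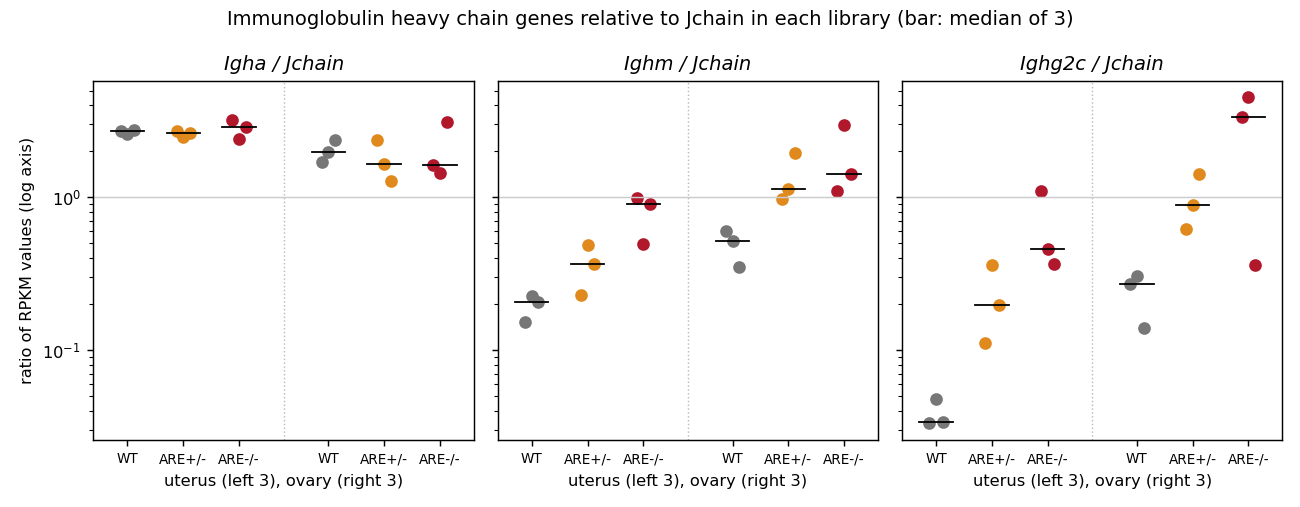
Ratio of 3 immunoglobulin heavy chain genes to Jchain per kilobase of exon (vertical axis, log scale) in each library by genotype, uterus left and ovary right in each panel; bars are medians of 3. Igha to Jchain stays between 1.28 and 3.21 in all libraries, while Ighm and Ighg2c to Jchain are above WT in every carrier library of the same tissue.

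In the ovary Ighm had 9.59, 14.1 and 6.55 CPM in WT, 61.3, 45.2 and 367 CPM in ARE+/- and 122.5, 617 and 28.6 CPM in ARE-/-, a log2 fold change of 4.66 ± 1.40 (adjusted p = 0.0862). Ighg2c had 3.07, 5.99 and 1.86 CPM in WT, 28.2, 25.3 and 193 CPM in ARE+/- and 265, 668 and 5.21 CPM in ARE-/-, 6.43 ± 1.85 (adjusted p = 0.0765). Apart from Ighg2c in ARE-/- replicate 6, the carriers were above WT for both. Of 11 immunoglobulin genes 1 was called in the ARE-/- ovary, Iglc3 (5.10 ± 1.30, adjusted p = 0.0498), a call lost in 11 of 15 alternatives, and 8 had an unadjusted p under 0.05; DESeq2 called 8. In ARE+/- 0 of 11 were called, with 7 at an unadjusted p under 0.05 and 2 called by DESeq2.

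Other genes of B cells and plasma cells were examined as a list of 20 and a list of 15. Of the 20 B cell genes, 2 rose in the ARE-/- uterus, Cd37 (1.41 ± 0.24, adjusted p = 0.0122) and Cd180 (1.84 ± 0.36, adjusted p = 0.0239), with a list median of 1.05 beside 0.04 over all genes. Cd37 is a tetraspanin of leukocytes and Cd180 a toll-like receptor relative that macrophages also carry. In the ARE-/- ovary 5 of 20 rose: Cd37 (1.71 ± 0.36), Cd180 (1.72 ± 0.34), Cd72 (1.02 ± 0.24), Bank1 (2.16 ± 0.49) and Btk (1.72 ± 0.43), with a list median of 1.72 beside 0.02. Btk, a kinase of B cell receptor signalling, is also known from myeloid cells. Pou2af1, a coactivator of antibody gene transcription, had 0.281, 0.306 and 0.1004 CPM in WT, 0.837, 0.470 and 4.93 CPM in ARE+/- and 4.49, 16.2 and 0.893 CPM in ARE-/- ovary libraries. All carriers were above WT, with a log2 fold change of 4.96 ± 1.38 (adjusted p = 0.0628). These counts moved with single libraries. The uterus count was 0 without WT replicate 1 or 3, 4 without ARE-/- replicate 2 and 1 without ARE-/- replicate 3. The ovary count was 0 without WT replicate 1, WT replicate 3 or ARE-/- replicate 2. It was 1 when WT replicate 2 or ARE-/- replicate 3 was left out and 10 when ARE-/- replicate 6 was. In ARE+/- 0 of 20 were called by edgeR in either tissue, with 11 and 7 at an unadjusted p under 0.05, and DESeq2 called 4 and 5.

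Of the 15 plasma cell program genes, edgeR called 0 in the ARE-/- uterus, with 7 at an unadjusted p under 0.05 and 3 called by DESeq2 or without ARE-/- replicate 1, and the list median was -0.02. Slamf7, a surface receptor of plasma cells that NK cells and macrophages also carry, was nearest at 1.66 ± 0.40 (adjusted p = 0.0526). In the ARE-/- ovary 4 of 15 rose: Slamf7 (1.83 ± 0.34), Tnfrsf13b (1.81 ± 0.46), Creld2 (1.03 ± 0.16) and Xbp1 (0.46 ± 0.12), with a list median of 0.36. The count was 1 without the first or the third WT library, and 2 when WT replicate 2, ARE+/- replicate 1 or either of the ARE-/- libraries numbered 2 and 3 was left out. Tnfrsf13b encodes TACI, a receptor for the cytokines BAFF and APRIL, while Creld2 and Xbp1 belong to the response of secretory cells of many kinds to load in the endoplasmic reticulum. Creld2 had 44.8, 42.7 and 61.0 CPM in WT and 81.4, 108.5 and 113 CPM in ARE-/- ovary libraries. The highest was replicate 6, the library in which Jchain lay at the WT level. In ARE+/- 0 of 15 were called by edgeR in either tissue, with 6 and 3 at an unadjusted p under 0.05, and DESeq2 called 1 and 2. In the ARE+/- uterus 2 of the 15 lay above all WT libraries, where 15.7% of all genes did, and 5 lay below. In the ARE-/- uterus 2 lay above, where 12.5% of all genes did, and 2 lay below. The share of all genes that lay below is not given here, so the counts below are not read as a result. The list median was -0.18 in the ARE+/- uterus and 0.04 in the ARE+/- ovary. The list summed to 982 to 1430 CPM in the WT uterus, 797 to 1030 CPM in ARE+/- and 800 to 1108 CPM in ARE-/-. Of the germinal centre genes, 1 of 8 rose in the ARE-/- uterus, Fas (1.57 ± 0.33, adjusted p = 0.03), a death receptor of many cell types, a call lost in 6 of 15 alternatives, among them those without WT replicate 1 or 3, and 0 of 9 in the ovary, where 4 had an unadjusted p under 0.05 and DESeq2 called 1.

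Among factors that attract or sustain B cells and plasma cells, Tnfsf13b, which encodes BAFF, had 2.02, 2.42 and 2.16 CPM in WT, 9.18, 6.19 and 9.49 CPM in ARE+/- and 13.3, 15.3 and 9.60 CPM in ARE-/- ovary libraries. The 3 ovary genotypes did not overlap, ARE-/- replicate 6 included. Tnfsf13b rose by 2.53 ± 0.24 in ARE-/- (adjusted p = 0.000353) and by 1.91 ± 0.24 in ARE+/- (adjusted p = 0.0044). Ltb, a lymphotoxin of lymphocytes that shapes lymphoid tissue, rose by 2.85 ± 0.42 in the ARE-/- ovary (adjusted p = 0.00413). Ltb also rose by 2.25 ± 0.30 in the ARE-/- uterus (adjusted p = 0.00423) and in the ARE+/- uterus by 1.47 ± 0.29 (adjusted p = 0.0481). The last call was lost in 8 of 15 alternatives, among them those without uterus WT replicate 1 (adjusted p = 0.243), without WT replicate 3 (adjusted p = 0.229) and without any 1 of the ARE+/- libraries. Ccl19, a chemokine of lymphoid tissue, rose by 3.37 ± 0.56 in the ARE-/- ovary (adjusted p = 0.00658), and Pigr, the receptor that carries J chain-joined antibody across epithelium, by 2.72 ± 0.68 (adjusted p = 0.0445), a call lost in 8 of 15 alternatives. Of 10 genes of this list tested in each tissue, 4 rose in the ARE-/- ovary and 1 in the ARE-/- uterus, with medians of 1.79 and 1.52.

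The genes whose log2 levels over the 9 libraries of a tissue were most like those of Cd79a and Jchain were ranked among genes that averaged 1 CPM or more, 18384 in the uterus and 18661 in the ovary. In the ovary those nearest to Cd79a were Spib (r = 0.99), a B cell transcription factor, Ighv1-80, Fcmr (r = 0.985), Ighv1-82 and Ighd, the IgD heavy chain (r = 0.982). Those nearest to Jchain in the ovary were Irf4 (r = 0.986), a plasma cell transcription factor, Chodl, Iglc2, Igkj5 and Igkc (r = 0.981). In the uterus Igha was nearest to Jchain (r = 0.981), followed by Igkv5-48, Igkj1, AA914427 and Igkv3-2 (r = 0.917). Nearest to Cd79a in the uterus were Skap1 (r = 0.97), an adaptor of T cell receptor signalling, Asap3, Arl6ip1, Sept1 and Abhd3 (r = 0.941), none of them among the B cell and plasma cell genes listed here. These are the highest of many correlations over few libraries and carry no test.

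In the authors' deposited table of a test over genotypes, the adjusted p of Cd79b was 2e-06 for the ovary and 0.00793 for the uterus. The same authors' deposited table gave 0.0348 for Jchain in the uterus and, for the ovary, 0.0267 for Fcmr and 0.028 for Mzb1. Tnfrsf17 had no adjusted p for the ovary, and the remaining values of the 9 genes were not under 0.05 in either tissue. Of all genes with an adjusted p, 2015 of 26674 were under 0.05 for the uterus and 2954 of 24347 for the ovary. The authors name a stricter threshold than 0.05, under which lay 514 genes for the uterus and 719 for the ovary. Among the 9 genes, only Cd79b in the ovary was under that threshold.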

How the data were processed

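Total RNA of 18 libraries was analysed, with 3 libraries per genotype and tissue. The authors' deposited tables hold raw counts per gene, made with featureCounts 2.0.4 on GENCODE M32 per the file headers, with reads that map to several places or overlap several genes counted for each and with no strand setting; the submitters' processing notes name mm10, STAR and DESeq2. Both mates of a pair appear to be counted, since 71.5% of counts from 1 to 20 were even. The authors also deposited, for each tissue, a likelihood-ratio table over genotypes with p-values, a mean normalized signal per gene, a log2 fold change and a score (the test statistic); of these, adjusted p-values are given here.

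From the counts, edgeR 4.0.16 (R 4.3.3) kept genes with filterByExpr, scaled by TMM and ran quasi-likelihood tests over the 9 libraries of a tissue, or over all 18 for comparisons of tissues, with Benjamini-Hochberg adjustment over all genes tested and a threshold of 0.05. Errors of log2 fold changes are standard errors from the F statistic, intervals are 95% normal ones, and SDs are over 3 libraries. CPM and RPKM levels use TMM-scaled library sizes of 1 tissue, so levels set across tissues are scaled separately. The level given for a count of 0 is that of 3 counts, which covers counting error only. As both mates of a pair appear to be counted, 3 counts are fewer than 3 read pairs. A limit of 3 read pairs would be higher than the levels given. Likeness used Pearson's r of log2(CPM + 1) among genes that averaged 1 CPM or more, and the 5 nearest are named. Steps were tested on simulated counts.

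The 9 genes and the other lists were chosen with earlier results of these data known. From the other B cell, plasma cell, immunoglobulin, germinal centre and niche lists, genes that passed in a comparison and those with the smallest adjusted p or the largest fold change for ARE-/- against WT could be named; Igha was named after its values were seen. Libraries were taken as separate mice, as the design text reads; p-values measure the spread between them. No libraries were duplicates: replicate counts differed by more than sampling noise. Alternatives were DESeq2 1.42.0, its size factors in edgeR, no low-count filter, halved counts, the 2 genotypes alone, the replicate number as a block, and each library left out.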

Additional observations from a re-analysis of the deposited data

How the results depend on the processing

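Among the tests of the 9 genes, those of ARE-/- against ARE+/- in each tissue and those of the tissue difference of either carrier effect gave 0 calls under every alternative run. DESeq2 called 2 genes for ARE-/- against WT, 2 for ARE+/- against WT and 2 for any genotype in the uterus, 5, 1 and 3 in the ovary, and 3 between WT tissues. With no low-count filter the calls were 1 in the ARE-/- uterus (Cd79b), 0 in the ARE-/- ovary and 0 between WT tissues. With only the 2 genotypes compared, 1 gene was called in the ARE+/- uterus, and with counts halved 1 for any genotype in the ovary. Leaving out each library in turn gave 0 to 1 calls in the uterus for ARE-/- and for ARE+/-, 0 to 3 for ARE-/-, 0 to 1 for ARE+/- and 0 to 1 for any genotype in the ovary, and 0 to 2 between WT tissues. The cause was not tested.

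With the replicate number as a block, 1 gene was called in the ARE-/- uterus (Cd79b, 2.17, edgeR adjusted p = 0.0232). In the ovary 6 were called for ARE-/- and 1 for any genotype. Blk in the ARE-/- uterus was then -0.0933 and Fcmr in the ARE+/- uterus -0.20 on the log2 scale. The ovary numbers 4 and 6 each belong to 1 library, ARE+/- replicate 4 and ARE-/- replicate 6. The block fits these libraries exactly, so they do not inform the blocked ovary differences. With no block and without ARE-/- replicate 6, 3 genes were called in the ARE-/- ovary. Same-numbered libraries did not deviate together throughout. Their correlations were -0.022 to 0.441 over 9 uterus pairs, 7 of them over 0.1, and -0.275 to 0.038 over 5 ovary pairs. Differently numbered uterus libraries had correlations of -0.427 to 0.24, and not every uterus library correlated best with its own number. The main fits did not take the numbers as pairs. The labels do not say what the numbers mark, and whether uterus libraries of a number share a factor was not tested.

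None of the genes that changed sign when a library was left out was called. The log2 ranges were -0.13 to 1.01 for Ms4a1 and -0.35 to 0.48 for Blk in the ARE-/- uterus, and -0.11 to 0.99 for Ms4a1, -1.15 to 3.46 for Pax5 and -0.39 to 0.71 for Fcmr in the ARE+/- uterus. They were -0.0675 to 1.57 for Blk in the ARE-/- ovary, and -0.32 to 2.01 for Ms4a1 and -0.67 to 0.52 for Blk in the ARE+/- ovary. For the tissue difference of the ARE-/- effect they were -0.54 to 2.33 for Ms4a1, -0.33 to 1.82 for Cd79a and -0.11 to 1.53 for Blk. Between WT tissues they were -0.37 to 0.43 for Cd79a, -1.08 to 0.15 for Fcmr and -1.31 to 0.79 for Tnfrsf17. Over all genes, calls ran from 192 (without uterus WT replicate 3) to 2276 (DESeq2) around 911 for the ARE-/- uterus, from 0 (without uterus WT replicate 3) to 1305 (DESeq2) around 276 for ARE+/-, from 785 (without ovary WT replicate 1) to 3904 (DESeq2) around 2558 for the ARE-/- ovary, and from 59 (replicate block) to 1338 (DESeq2) around 417 for ARE+/-. Counts were lowest, with libraries at 0, for Pax5 and Tnfrsf17 in the uterus and Tnfrsf17 in the ovary; uterus Ms4a1 and Fcmr also had few.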
